A study of Mus musculus with 12 samples.

Results

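The Notch pathway was followed through 10 of the 55335 genes of the count table, chosen by symbol: the ligands *Jag1*, *Jag2*, *Dll1* and *Dll4*, the receptors *Notch1*, *Notch2* and *Notch4*, the transcription factor *Rbpj*, and the targets *Hes1* and *Hey1*. Each symbol was listed 1 time. A further 61 genes of the pathway (ligand and receptor processing, co-activators, co-repressors, other targets) served as a comparison. RNA had been sequenced from 12 libraries in 4 groups of n = 3, each from male mice. Bone marrow-derived macrophages (BMDMs) came from *Tshr* f/f mice and from *Tshr* f/f, Lyz2-Cre littermates (*Tshr* MKO) aged 6 weeks. M-CSF (10 ng/mL) was present during the 7 days of culture, and TSH (thyrotropin) was then added to all BMDMs at 1 ng/mL for 24 h, so none of the libraries was free of TSH. Livers came from mice of the same 2 genotypes that were put on a high-fat diet (HFD) at 6 weeks of age for 9 weeks, fasted for 8 h and given insulin (1.5 U/kg) 5 min before death. Both genotypes carried loxP sites around the last coding part of *Tshr*, and MKO mice also carried Cre under the control of *Lyz2*, a gene of macrophages, monocytes and neutrophils. Hepatocytes and endothelial cells of the MKO livers were thus outside the reach of the Cre as designed.

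The genotype could not be checked on its target. *Tshr*, the TSH receptor, had 0, 0 and 2 counts in f/f BMDMs, 0, 0 and 5 in MKO BMDMs and 0 in all livers, and 3 counts would be 0.0733 to 0.104 CPM (CPM, counts scaled to the size of the library, with TMM factors within a tissue), a limit for counting error only. A table of receptor levels that the study supplies lists the 3 livers labelled MKO under its wild-type headings and the reverse, so livers are called "labelled f/f" and "labelled MKO" here and every direction in liver rests on the labels of the libraries. *Lyz2* was at 8873, 9846 and 8763 CPM in f/f BMDMs and at 16156, 14539 and 22320 CPM in MKO BMDMs. It was thus higher in each MKO library than in each f/f library (1.93-fold), and the cause was not tested. In liver *Lyz2* was at 1.56 CPM in the library labelled MKO replicate 1 and between 27.7 and 106.5 CPM in the other 5. Libraries held 33683981 to 40954211 counts in BMDMs and 28962878 to 40420513 in liver. BMDM f/f replicate 3 stood apart, with a scaling factor of 0.739 against 0.993 to 1.114 in the other 5 BMDM libraries and with 20064 CPM of 4 cytokine genes (*Il1a*, *Il1b*, *Il6* and *Tnf*) against 854 and 1602 CPM in the other f/f libraries. In the BMDMs, the 6 macrophage markers summed to 5495 to 7014 CPM and 5 hepatocyte markers to at most 0.0784 CPM. Genes of the Kupffer cell and stellate cell marker lists also had counts in BMDMs, which does not show that such cells were present. The 5 Kupffer cell markers summed to 229 to 505 CPM in f/f and 64.8 to 373 CPM in MKO BMDMs, with *Clec4f* at 0 in all 6, and the 5 stellate cell markers, some of which other stromal cells share, to 143 to 244 CPM and 112 to 188 CPM, with *Lrat* at 0 in all 6. In the livers, the hepatocyte markers summed to 72506 to 97020 CPM.

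Notch signaling passes between touching cells. A ligand of the Jagged or Delta-like family on the sending cell binds a Notch receptor on the receiving cell, the receptor is cut by ADAM proteases and then by γ-secretase, and its intracellular part enters the nucleus, where it joins RBPJ and Mastermind proteins to switch on genes such as *Hes1* and *Hey1*. Without the cleaved receptor, RBPJ sits with co-repressors. In macrophages the pathway acts together with inflammatory stimuli, and in the liver it is known for the formation of bile ducts, for the identity of endothelial cells and for the control of glucose and lipid metabolism in hepatocytes.

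*Jag1* and *Rbpj* were the members whose 2 genotypes did not overlap in BMDMs, and the DNA ahead of the exon at a RefSeq start of each is shown for that reason. The sequences are from RefSeq (GRCm38.p6), which gave promoter windows (250 bases before to 50 after a start) for 8 of the 10 members, and are cut where the GENCODE exon begins. The stretch of *Rbpj* lies within the span of the gene, ahead of an internal start. They run 5′ to 3′ on the strand of the gene, and capitals mark the core recognition word of RBPJ, TGGGAA or its complement TTCCCA on the other strand.
*Jag1*, chr2:137116645-137116770, minus strand: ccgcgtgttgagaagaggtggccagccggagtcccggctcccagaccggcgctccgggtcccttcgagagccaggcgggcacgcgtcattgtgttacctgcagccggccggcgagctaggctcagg
*Rbpj*, chr5:53590096-53590213, plus strand: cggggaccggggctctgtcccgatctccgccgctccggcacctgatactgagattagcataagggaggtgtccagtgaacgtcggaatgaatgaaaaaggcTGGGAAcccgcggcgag
Over the whole windows of 300 bases, the word was found in both windows of *Rbpj* and in none of the windows of the other 7 matched members. In the first window of *Rbpj* it lay at −149 to −144 from the start site and, on the other strand, at −65 to −60. Of 32851 promoter windows of the same length, 25.6% held the word, so a match is a description of the letters and not a site. *Hes1* and *Hey1* were not matched.

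In TSH-treated BMDMs, *Jag1* was the ligand with high counts, and it was lower in each MKO library than in each f/f library. *Jag1* (ENSMUSG00000027276, chromosome 2, 137081456–137116644, minus strand, GRCm38) encodes Jagged 1. It was at 67.9, 66.8 and 89.1 CPM in f/f BMDMs (74.6 ± 12.5, mean ± SD, n = 3) and at 26.1, 21.4 and 18.8 CPM in MKO BMDMs (22.1 ± 3.71, n = 3). The highest MKO value, 26.1 CPM, was well below the lowest f/f value, 66.8 CPM, and the log2 fold change (MKO minus f/f) was −1.75 (SE 0.19), 3.37-fold lower. The members had been chosen with values of these libraries known, so differences between genotypes in members are given as a description, with no test. Leaving out each library in turn gave −1.89 to −1.60, the latter without f/f replicate 3, and scaling by library totals alone gave −1.54. That scaling moved the median log2 fold change of all genes from 0.01 to 0.17, so *Jag1* lay below the median of all genes under both. Of the Kupffer cell and stellate cell markers, *Marco* (174, 220 and 421 CPM in f/f and 94.8, 50.8 and 36.1 CPM in MKO BMDMs), *Timd4* (2.89 to 19.0 CPM against at most 2.48 CPM) and *Pdgfrb* (10.7, 16.4 and 14.2 CPM against 6.95, 10.5 and 4.51 CPM) were also lower in each MKO library than in each f/f library, and the other 4 with a fold change (*Vsig4*, *Cd5l*, *Des* and *Dcn*) overlapped. What these genes mark in the culture, and any part of it in the level of *Jag1*, was not tested.

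The other 3 ligands were near the floor in BMDMs. *Dll4* was at 0.502, 0.848 and 0.690 CPM in f/f and at 0.470, 0.614 and 0.506 CPM in MKO BMDMs, so the groups overlapped. *Dll1* had 30, 2 and 25 counts in f/f and 9, 19 and 2 in MKO BMDMs. *Jag2* had 8, 9 and 5 counts against 0, 9 and 21, did not pass the filter on low counts, and has no fold change here. Per kb of exon, *Jag1* made up 97.2, 97.8 and 97.2% of the 4 ligands in f/f BMDMs and 96.2, 92.1 and 93.7% in MKO BMDMs. *Jag1* thus held over 90% of the ligand level in both genotypes.

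**Figure D1:**
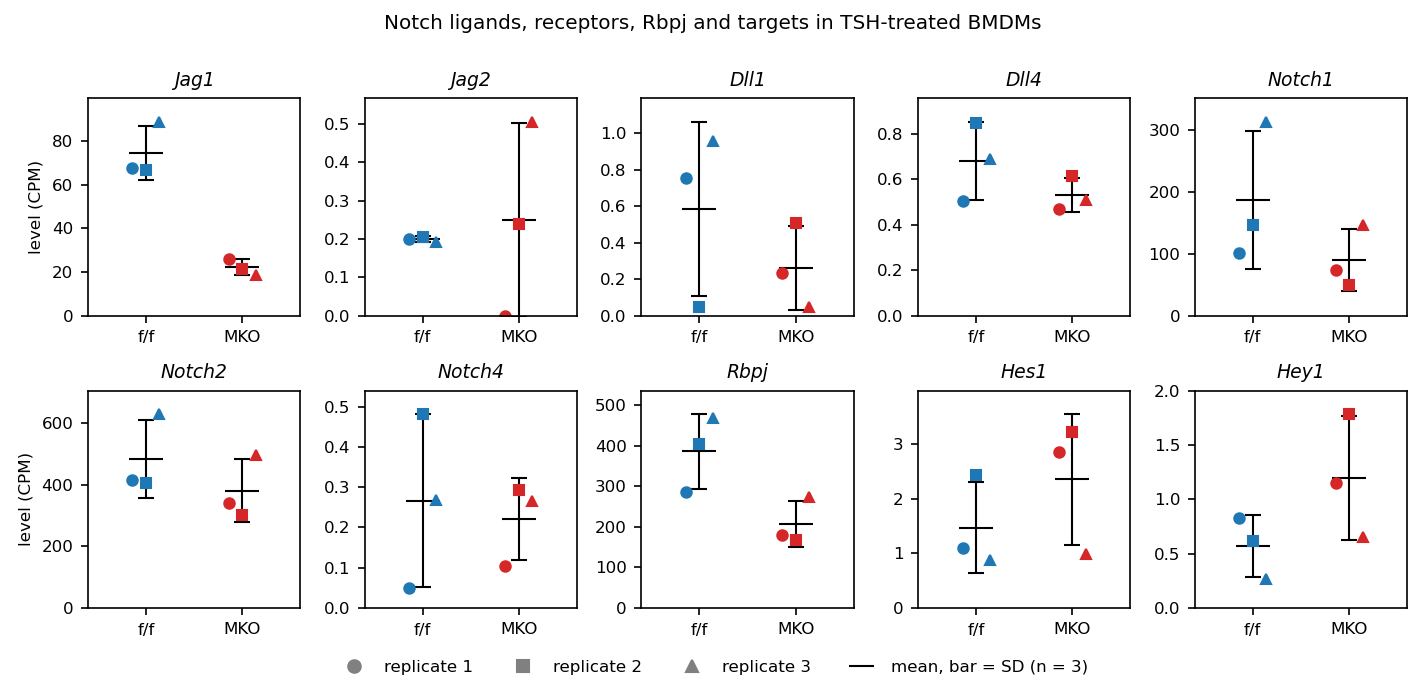
Levels of the 10 genes in TSH-treated BMDMs, in CPM scaled by TMM (y axis from 0, each panel with its own scale), by genotype (x axis). Each point is a library, its shape gives the replicate number, and the line and bar are the mean and SD (n = 3). *Jag1* lies at 66.8 to 89.1 CPM in f/f and 18.8 to 26.1 CPM in MKO, and *Rbpj* is the other gene whose groups do not overlap.

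Among receptors, *Notch2* and *Notch1* were high in BMDMs and *Notch4* was near the floor. *Notch1* (ENSMUSG00000026923, chromosome 2, 26457903–26516663) was at 102.03, 146 and 314 CPM in f/f and 73.2, 50.3 and 146 CPM in MKO BMDMs. The means were 188 ± 112 and 90.0 ± 50.2 CPM, and the groups overlapped (log2 fold change −1.06, SE 0.55). Replicate 3 was the highest of each group, and without f/f replicate 3 the log2 fold change was −0.47, without MKO replicate 3 −1.60. *Notch2* (ENSMUSG00000027878, chromosome 3, 98013527–98150361) was at 417, 407 and 631 CPM in f/f and 342, 303 and 499 CPM in MKO BMDMs, again with replicate 3 highest in both (log2 fold change −0.35, SE 0.28). *Notch4*, a receptor of endothelial cells, had 2, 21 and 7 counts against 4, 11 and 11. In the ratio of *Jag1* to the 3 receptors summed, per kb of exon, f/f BMDMs gave 0.254, 0.238 and 0.190 and MKO BMDMs 0.122, 0.116 and 0.0570, so the ratio was lower in each MKO library than in each f/f library.

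*Rbpj* (ENSMUSG00000039191, chromosome 5, 53466152–53657362, plus strand) encodes the DNA-binding protein at the end of the pathway. It was at 287, 405 and 468 CPM in f/f BMDMs (387 ± 92.2) and at 181, 168 and 273 CPM in MKO BMDMs (207 ± 57.3). The groups did not overlap, but the highest MKO library lay just under the lowest f/f library (log2 fold change −0.90, SE 0.28, and −0.74 without f/f replicate 3). *Rbpj* is an uncertain count, because the processed pseudogene *Rbpj-ps3* is a near-identical copy and held 7.78 to 9.14% as many counts as *Rbpj* in BMDMs and 2.95 to 10.1% in liver. Of the genes that overlap a member, those listed in the count table held at most 271 counts each over the 12 libraries (*Gm42820*, within *Notch2*), and whether the counting used strand is not stated.

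The targets were low in BMDMs and did not lie lower in MKO libraries. *Hes1* (ENSMUSG00000022528, chromosome 16, 30064384–30067796), a transcriptional repressor, was at 1.10, 2.43 and 0.882 CPM in f/f and 2.85, 3.23 and 0.988 CPM in MKO BMDMs. The groups overlapped (log2 fold change 0.66, SE 0.58). *Hey1* (ENSMUSG00000040289, chromosome 3, 8663359–8667256), a repressor of the same family, was at 0.829, 0.619 and 0.269 CPM against 1.15, 1.79 and 0.651 CPM, also with overlap (log2 fold change 1.04, SE 0.56). Each value of *Hey1* rested on 7 to 67 counts.

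With TMM factors, *Notch1*, *Notch2* and *Rbpj* were highest, and *Hes1* and *Hey1* lowest, in the library numbered 3 of f/f and of MKO BMDMs. *Notch4* was highest in the library numbered 2 of both. Among 15355 genes with at least 60 counts over the BMDM libraries, 18.5% were highest in replicate 3 of both groups and 16.6% lowest. This pattern was noticed after the values were seen. The 4 cytokine genes summed to 20064 CPM in f/f replicate 3 and, in MKO BMDMs, to 95.6, 81.1 and 269 CPM in replicates 1, 2 and 3, so they too were highest in replicate 3 of each group. *Jag1* was highest in replicate 3 of f/f BMDMs (89.1 CPM, against 67.9 and 66.8 CPM in replicates 1 and 2). In MKO BMDMs it was lowest in replicate 3 (18.8 CPM, against 26.1 and 21.4 CPM). The order in f/f BMDMs rests on the scaling factor of 0.739 for replicate 3. By library totals alone that library was the lowest f/f library for *Jag1*. It held 2322 counts of *Jag1* in 35285791, against 2704 in 40138912 and 2917 in 39207620 in replicates 1 and 2. *Rbpj* was then highest in f/f replicate 2 (17672 counts, against 12207 in replicate 3). The part of cytokine level in the values of the members was not tested.

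Of the 10 members, 9 passed the filter in BMDMs, and 2 (*Jag1* and *Rbpj*) did not overlap between groups in the lower direction and 0 in the higher. Among all 15372 genes tested, 14% did not overlap in the lower direction and 14.8% in the higher direction. The choice of members used this contrast or may have, so the count is a description. The median log2 fold change of the 9 was −0.36, and that of all genes was 0.01.

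In liver the members were expressed at other levels, and *Jag1* was again lower in each library labelled MKO. *Jag1* was at 4.09, 5.49 and 4.78 CPM in livers labelled f/f (4.79 ± 0.70, n = 3) and at 3.30, 3.10 and 3.43 CPM in those labelled MKO (3.28 ± 0.17, n = 3), from 97 to 199 counts a library. The groups did not overlap (log2 fold change −0.55, SE 0.20, −0.66 to −0.44 with a library left out). In bulk tissue, fewer cells of a type and less RNA per cell cannot be told apart. The Cre is active in myeloid cells, while liver RNA comes mostly from hepatocytes. The 6 markers of bile duct cells, which express *Jag1*, summed to 24.2, 26.4 and 31.9 CPM in livers labelled f/f and 19.9, 25.6 and 20.7 CPM in those labelled MKO, and none of the 6 was at 0 in a whole group. Their part in the level of *Jag1* was not tested.

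On the scale within liver, *Notch1* and *Notch2* were lower in each liver labelled MKO than in each labelled f/f, and *Notch4* overlapped. *Notch1* was at 28.4, 28.6 and 34.2 CPM in livers labelled f/f and 17.04, 26.0 and 16.5 CPM in those labelled MKO (log2 fold change −0.61, SE 0.19), with no overlap on this scale. *Notch2* was at 51.6, 52.3 and 56.5 CPM against 39.4, 51.5 and 40.9 CPM (log2 fold change −0.28, SE 0.12), where replicate 2 labelled MKO came within 0.1 CPM of the lowest f/f value. Scaled over all 12 libraries the groups of *Notch2* overlapped, with a highest value of 6.63 CPM per kb of exon in livers labelled MKO and a lowest of 6.39 in those labelled f/f. *Notch4* was at 1.83, 7.72 and 4.54 CPM against 2.82, 4.52 and 4.11 CPM, and the groups overlapped (log2 fold change −0.30, SE 0.49, and 0.26 without the liver labelled f/f replicate 2). The lowest value of *Notch4* was in the liver labelled f/f replicate 1. That library also had the lowest sum of 8 endothelial markers (56.3 CPM, 144 to 218 CPM in the other 5 livers) and of 5 stellate cell markers (32.4 CPM against 98.6 to 265 CPM), and the highest sum of 5 neutrophil markers (66.0 CPM against 5.67 to 20.6 CPM). The part of cell types in these values was not tested.

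The remaining members gave mixed values in liver. *Hes1* was at 5.72, 6.62 and 6.63 CPM in livers labelled f/f and 2.93, 5.33 and 5.03 CPM in those labelled MKO, with no overlap on the scale within liver. Its log2 fold change was −0.51 (SE 0.26), and −0.29 without the liver labelled MKO replicate 1. *Rbpj* was at 14.9, 13.8 and 11.6 CPM against 11.985, 12.5 and 11.5 CPM, with overlap (log2 fold change −0.16, SE 0.13). *Dll1*, a ligand, was at 2.23, 3.45 and 2.65 CPM against 2.99, 3.88 and 2.83 CPM, also with overlap (log2 fold change 0.22, SE 0.26). *Dll4*, a ligand of endothelial cells, spread over 0.637 to 2.62 CPM in livers labelled MKO and 0.880 to 2.45 CPM in those labelled f/f, and its log2 fold change of 0.19 (SE 0.59) lay between −0.13 and 0.60 with a library left out. *Hey1* had 8 to 23 counts a library (log2 fold change −0.25, SE 0.51). *Jag2* had 6, 5 and 19 counts against 0, 17 and 6 and did not pass the filter.

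Of the 9 members tested in liver, 4 (*Jag1*, *Notch1*, *Notch2* and *Hes1*) did not overlap in the lower direction on the scale within liver, and 0 in the higher. Among all 15062 genes tested, 7.74% did not overlap in the lower direction and 9.6% in the higher direction. This contrast also may have entered the choice of members, so nothing is read from the count. Scaled over all 12 libraries *Notch2* overlapped. By library totals alone *Notch1*, *Notch2* and *Hes1* overlapped. The liver labelled f/f replicate 1 had 839 counts of *Notch1* and 169 of *Hes1* in 33168714. The liver labelled MKO replicate 2 had 1093 and 224 in 40420513. Side by side, the log2 fold changes in BMDMs and in liver were −1.75 and −0.55 for *Jag1*, −1.06 and −0.61 for *Notch1*, −0.35 and −0.28 for *Notch2*, −0.90 and −0.16 for *Rbpj*, and 0.66 and −0.51 for *Hes1*. Whether a member differed by genotype more in one tissue than in the other was not tested.

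**Figure D2:**
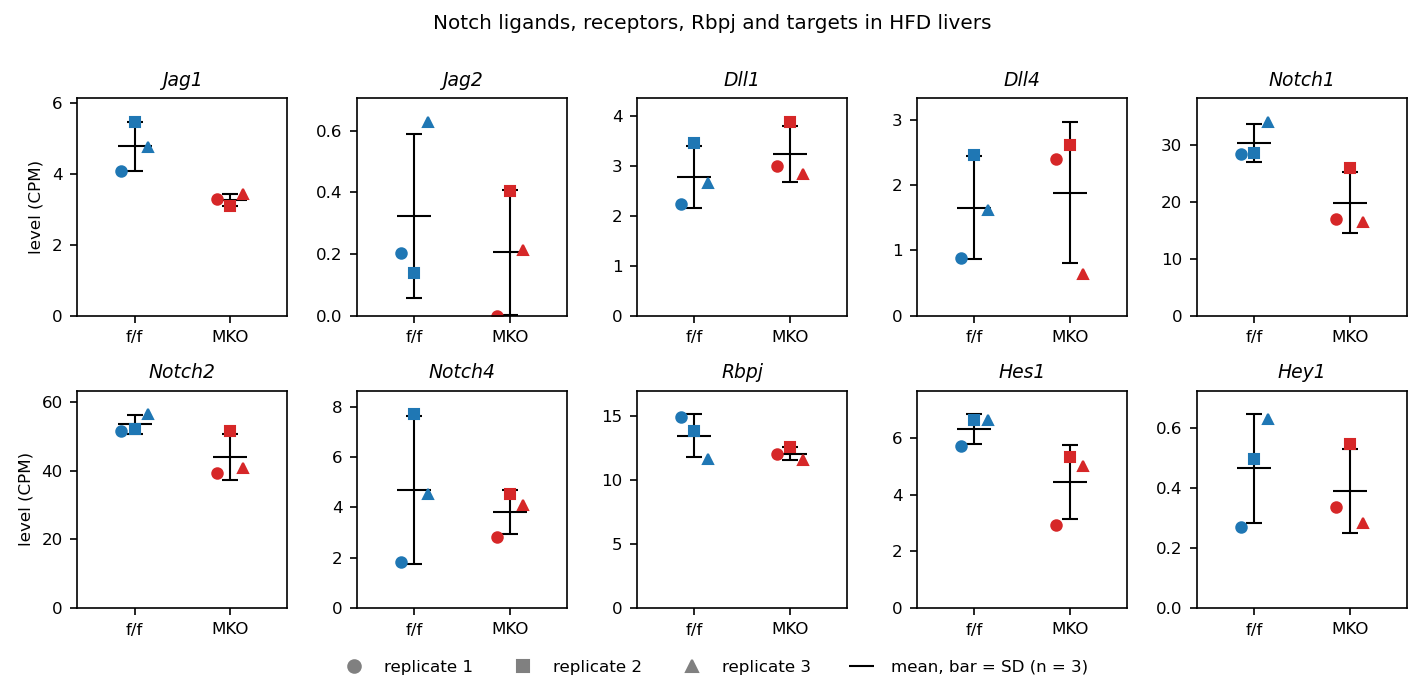
Levels of the 10 genes in HFD livers, in CPM scaled by TMM (y axis from 0, each panel with its own scale), by the genotype on the label (x axis). Points are libraries, shapes are replicate numbers, and the line and bar are the mean and SD (n = 3). *Jag1*, *Notch1*, *Notch2* and *Hes1* do not overlap between groups on this scale, *Notch2* by less than 0.1 CPM. *Notch2* overlaps when scaled over all 12 libraries, and *Notch1*, *Notch2* and *Hes1* overlap by library totals alone.

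**Figure D3:**
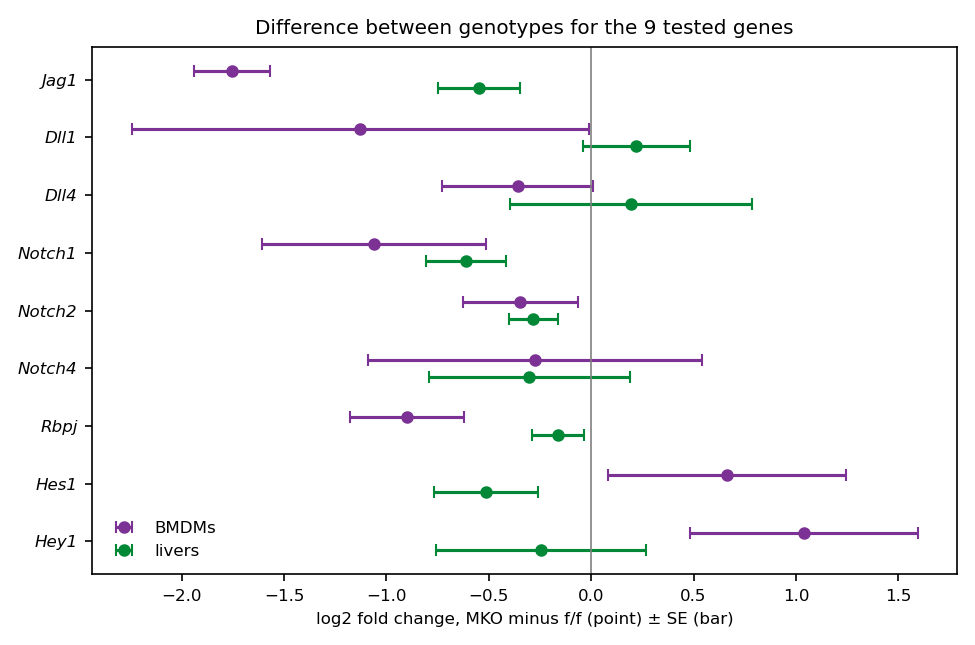
Log2 fold change between genotypes (MKO minus f/f, x axis) for the 9 members that passed the filter (y axis), in BMDMs (purple) and livers (green), with the SE as a bar. *Jag1* is at −1.75 in BMDMs and −0.55 in liver, and *Hes1* is at 0.66 in BMDMs and −0.51 in liver.

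The other 61 pathway genes were listed by role, and their genotype contrasts were tested with edgeR. In BMDMs 52 of them passed the filter and 0 had an adjusted p under 0.05 (0% of all genes, lowest 0.218 over all genes). DESeq2 put 1 lower and 4 higher past the same limit, called 7.96% of all genes. At an unadjusted p under 0.05 in edgeR, 4 were lower and 8 higher (17.9% of all genes in either direction). The thresholds of the study asked for at least a 2-fold change and an unadjusted p under 0.05, and past them 3 were lower and 2 higher, where all genes gave 5.52% lower and 3.3% higher. The median log2 fold change of the 52 genes was 0.15.

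The 3 genes lower at these thresholds came from 3 roles. *Dtx2*, a Deltex ubiquitin ligase that acts on Notch receptors, was at 29.3, 47.1 and 121 CPM in f/f and 19.3, 19.9 and 22.2 CPM in MKO BMDMs (log2 fold change −1.68, SE 0.51, edgeR adjusted p = 0.225, DESeq2 adjusted p = 0.024). It was the pathway gene that DESeq2 called lower. *Aph1b*, a subunit of γ-secretase, was at 19.9, 13.0 and 62.1 CPM against 10.4, 11.4 and 12.9 CPM (−1.45, SE 0.57, edgeR adjusted p = 0.265). *Tle3*, a Groucho-type co-repressor, was at 72.9, 70.3 and 249 CPM against 43.1, 51.3 and 61.8 CPM (−1.33, SE 0.53, edgeR adjusted p = 0.267). All 3 were highest in f/f replicate 3, the library with the highest cytokine sum.

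The 2 genes higher at these thresholds act on receptor sugars and on ligand uptake. *Lfng*, a fringe glycosyltransferase that alters which ligands a Notch receptor answers to, was at 42.5, 40.9 and 20.3 CPM in f/f and 75.6, 66.3 and 88.5 CPM in MKO BMDMs (log2 fold change 1.15, SE 0.30, edgeR adjusted p = 0.218, DESeq2 adjusted p = 0.012). *Neurl1b*, a ubiquitin ligase of ligand endocytosis, was at 1.16, 1.65 and 0.460 CPM against 3.24, 2.27 and 2.82 CPM (1.33, SE 0.47, edgeR adjusted p = 0.251). Both were lowest in f/f replicate 3. Without that library 0 of the pathway genes passed the thresholds, which 5.2% of all genes then did. The log2 fold change without it was −0.89 for *Dtx2*, −0.51 for *Aph1b* and −0.46 for *Tle3*, each over 1.5 times smaller in fold, and 0.88 for *Lfng* and 0.98 for *Neurl1b*, just under the 2-fold limit. Without MKO replicate 1, MKO replicate 3 or f/f replicate 2 the count was 3, 2 and 8, where 5.4, 8.59 and 12.7% of all genes passed.

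By role, the most abundant genes in BMDMs included a protease and a nuclear factor. *Adam17*, a protease that sheds membrane proteins, was at 336 to 632 CPM in f/f and 437 to 479 CPM in MKO BMDMs. *Ep300*, a histone acetyltransferase and co-activator, was at 181 to 195 CPM against 192 to 246 CPM. *Epn1*, an adaptor of endocytosis, was at 100 to 132 CPM against 147 to 163 CPM (log2 fold change 0.39, SE 0.15, edgeR adjusted p = 0.261). *Dtx3l*, a ubiquitin ligase, was at 256, 108 and 382 CPM against 122, 112 and 137 CPM, and the groups overlapped. *Dlk1*, *Notch3* and *Dtx1* led the other ligands, the other receptors and the other targets with means of 0.582, 0.744 and 0.188 CPM, and *Dll3* and *Hes5* had 0 counts in all 12 libraries.

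In liver 53 of the other pathway genes passed the filter, and 0 had an adjusted p under 0.05 with edgeR (0% of all genes, lowest 0.0634 over all genes). None passed the thresholds of the study, which 1.55% of all genes did. At an unadjusted p under 0.05, 3 were lower and 1 higher, against 10.5% of all genes in either direction. DESeq2 called 2 lower at an adjusted p under 0.05, *Furin* and *Spen*, and 1.79% of all genes. *Furin*, the protease that first cuts the receptor and the most abundant gene of receptor cleavage in liver, was at 306, 290 and 269 CPM in livers labelled f/f and 218, 223 and 202 CPM in those labelled MKO (log2 fold change −0.43, SE 0.10, edgeR adjusted p = 0.334). *Spen*, a co-repressor that binds RBPJ, was named for its DESeq2 call, after its values were seen, and was at 50.7, 55.8 and 54.0 CPM against 34.1, 36.0 and 38.4 CPM (−0.57, SE 0.09, edgeR adjusted p = 0.303).

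The most abundant genes of other roles given here overlapped between groups in liver. *Epn1* was at 127 to 138 CPM and 129 to 136 CPM and *Kat2b*, an acetyltransferase, at 57.3 to 68.4 CPM and 64.0 to 71.3 CPM in livers labelled f/f and MKO. *Dtx3l* was at 54.4 to 74.3 CPM and 58.4 to 73.3 CPM, and *Pofut1*, which adds O-fucose to Notch receptors, at 14.9 to 17.1 CPM and 12.7 to 15.7 CPM. *Notch3* and *Heyl* had means of 0.702 and 0.822 CPM, and *Dner*, the highest of the other ligands, had counts in 1 library. A test of whether the genotype difference was unlike in BMDMs and liver (interaction term, edgeR over all 12 libraries) covered 55 of the pathway genes and called 0 at an adjusted p under 0.05 (lowest 0.160), and 0.0058% of all genes. At an unadjusted p under 0.05 it called 9 of the 55, and 14.5% of all genes.

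**Figure D4:**
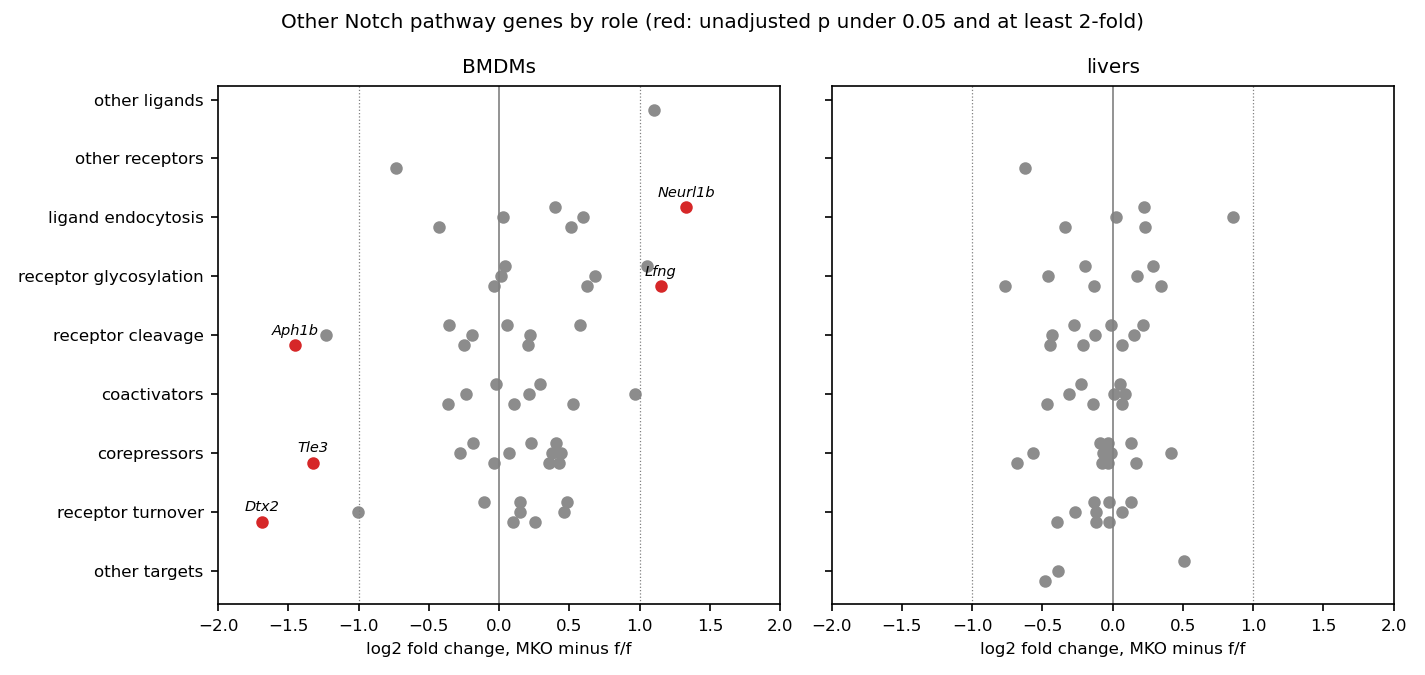
Log2 fold change between genotypes (MKO minus f/f, x axis) for the other Notch pathway genes that passed the filter, by role (y axis), in BMDMs (left) and livers (right). Each point is a gene, red points are past the thresholds of the study and the dotted lines mark a 2-fold change. 5 genes are red in BMDMs and none in liver.

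The levels of members in BMDMs and liver were compared within f/f libraries and, in libraries that the first comparison does not use, within MKO libraries. Cell type, culture, TSH, diet and insulin all differ between BMDMs and liver and cannot be told apart. Levels were scaled over all 12 libraries and divided by the length of the merged exons (CPM per kb). In f/f BMDMs the order was *Notch2* (33.0 ± 8.77 CPM per kb), *Rbpj* (22.2 ± 5.30), *Notch1* (9.68 ± 5.83) and *Jag1* (9.40 ± 1.63), and then *Hes1* (0.528 ± 0.294). Only *Notch1* and *Jag1* overlapped among these neighbours, and below *Hes1* the members *Dll4*, *Hey1*, *Dll1*, *Notch4* and *Jag2* each overlapped the next. In livers labelled f/f the order was *Notch2* (6.71 ± 0.38), *Hes1* (4.20 ± 0.39) and *Notch1* (2.89 ± 0.33), each above the next in all libraries. *Rbpj* (1.43 ± 0.17), *Jag1* (1.11 ± 0.17), *Dll1* (0.892 ± 0.206), *Notch4* (0.792 ± 0.502) and *Dll4* (0.582 ± 0.282) followed, each overlapping its neighbour, and *Hey1* and *Jag2* were lowest.

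MKO libraries gave a like order. In MKO BMDMs it ran *Notch2* (26.2 ± 7.36), *Rbpj* (12.02 ± 3.45), *Notch1* (4.68 ± 2.66), *Jag1* (2.80 ± 0.45) and *Hes1* (0.851 ± 0.429), where *Notch1* and *Jag1* overlapped. In livers labelled MKO *Dll1* (1.05 ± 0.20) stood above *Jag1* (0.766 ± 0.026) in all libraries. *Jag1* was 47.2, 39.0 and 41.8% of the 4 ligands per kb in livers labelled f/f and 29.8, 24.3 and 40.5% in those labelled MKO.

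**Figure D5:**
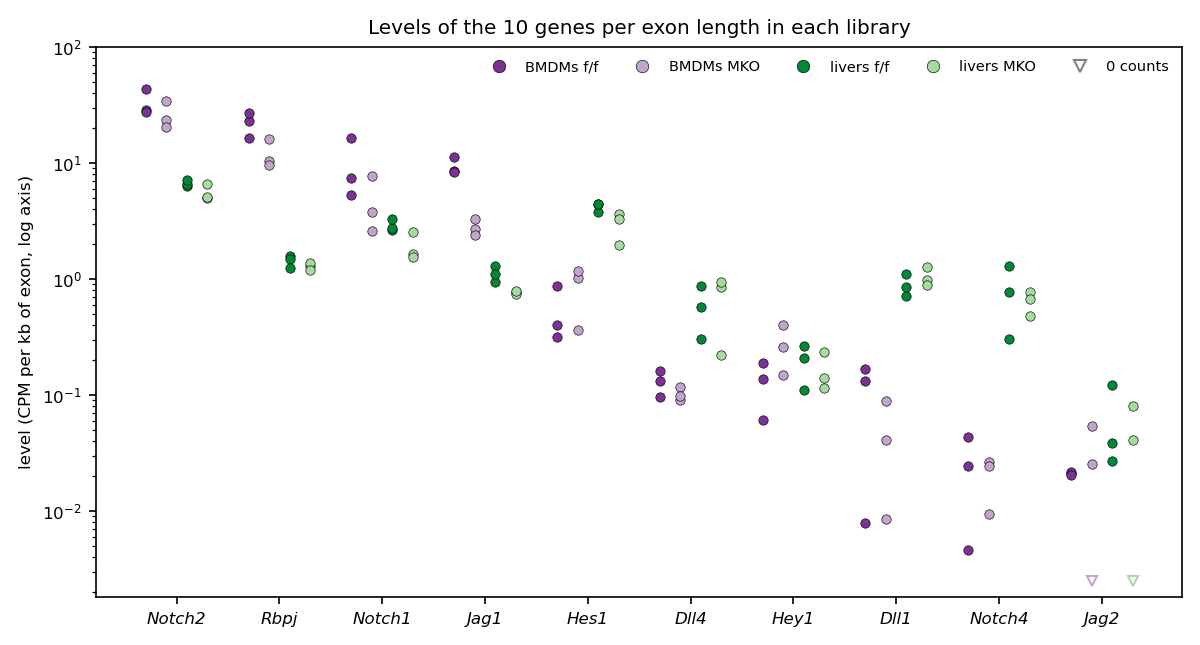
Level of each of the 10 genes in every library, in CPM per kb of exon on a log axis (y), ordered by the mean in f/f BMDMs (x). Colours give tissue and genotype, and open triangles at the bottom mark libraries with 0 counts. *Notch2*, *Rbpj* and *Jag1* lie higher in all BMDM libraries than in all livers, and *Hes1*, *Dll1*, *Dll4* and *Notch4* lie lower.

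*Notch1*, *Notch2*, *Rbpj* and *Jag1* lay higher in each BMDM library than in each liver of the same genotype label, and *Hes1* and *Dll4* lay lower. Since which values chose the members is not recorded, these differences too are given as a description, with no p-value. In f/f libraries *Jag1* was 8.38-fold higher in BMDMs than in liver (log2 fold change 3.07, SE 0.20), and in MKO libraries 3.70-fold (1.89, SE 0.16). *Rbpj* was higher by 3.95 (SE 0.26) and 3.24 (SE 0.20) on the log2 scale in f/f and MKO libraries. *Notch2* was higher by 2.29 (SE 0.24) and 2.25 (SE 0.22), and *Notch1* by 1.73 (SE 0.43) and 1.31 (SE 0.41). With library totals alone as the scale, the log2 fold changes in f/f and MKO libraries were 3.85 and 2.84 for *Jag1*, 4.76 and 4.18 for *Rbpj*, 3.06 and 3.18 for *Notch2* and 2.45 and 2.23 for *Notch1*. That scaling moved the median of all genes from −0.05 to 0.78 in f/f libraries and from −0.06 to 0.89 in MKO libraries.

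*Hes1* was 7.91-fold lower in f/f BMDMs than in liver (log2 fold change −2.98, SE 0.44) and 3.43-fold lower in MKO BMDMs (−1.78, SE 0.48). *Dll4* differed by −2.17 (SE 0.50) and −2.70 (SE 0.56) in log2 fold change (BMDMs minus liver). With library totals alone, the differences in f/f and MKO libraries were −2.08 and −0.81 for *Hes1* and −1.36 and −1.77 for *Dll4*. *Dll1* and *Notch4*, with 2 counts in some BMDM libraries, passed the filter of these comparisons through the livers, which favours a difference. Both also passed the filter in BMDMs alone. The log2 fold change was −3.16 and −4.48 for *Dll1* and −5.01 and −4.95 for *Notch4* in f/f and MKO libraries. Without BMDM MKO replicate 2 that of *Dll1* in MKO libraries was −5.36, and without BMDM f/f replicate 2 that of *Notch4* in f/f libraries was −5.83. *Hey1* was at −0.58 (SE 0.57) and 0.73 (SE 0.50).

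Over all 15931 genes tested between tissues in f/f libraries, 29.6% passed an adjusted p of 0.05 as higher in BMDMs and 33.8% as lower. In MKO libraries the shares were 36.2% higher and 39.5% lower of 16267 genes. With library totals as the scale, the calls over all genes were 7239 higher and 3192 lower in f/f libraries against 4718 and 5383 in the analysis as reported, and 9394 and 3890 against 5889 and 6427 in MKO libraries. *Dll1* and *Notch4* passed the filter through the livers, and the choice of members was not independent of these libraries. Members are therefore not counted among these calls.

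The genes most like *Jag1* over the 6 libraries of a tissue were found by the root mean square distance of log2 CPM, each centred on its mean. In BMDMs they were *Hmcn2*, an extracellular matrix protein (distance 0.140), *Morrbid*, a long noncoding RNA of myeloid cells (0.216), *Pmepa1*, a membrane protein known to restrain TGF-β signaling (0.229), *Sfmbt2*, a Polycomb-group protein (0.230), and *H2-Q7*, a class I histocompatibility gene (0.256). The median distance over all genes was 0.959. *Pmepa1* was at 8.66, 12.5 and 15.9 CPM in f/f and 5.25, 4.40 and 3.30 CPM in MKO BMDMs, and *Hmcn2* at 1.53, 1.83 and 2.69 CPM against 0.679, 0.480 and 0.506 CPM. *H2-Q7* shares reads with near-identical class I genes and is uncertain. In liver the 5 nearest were *Heatr5b* (0.0364), *Klhl3* (0.0611), *Epc2* (0.0657), *Mcm9* (0.0719) and *Nedd1* (0.0743), with a median over all genes of 0.400. *Heatr5b* was at 16.1, 20.5 and 18.9 CPM in livers labelled f/f and 12.5, 12.5 and 13.7 CPM in those labelled MKO. No gene was among the 5 nearest in both tissues. These genes were picked for a small distance, so their differences between genotypes are a description.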

How the data were processed

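The authors deposited raw read counts per gene for 12 libraries (strand-specific TruSeq libraries, an Illumina NovaSeq instrument, Skewer, and FastQC 0.11.2). The processing notes of the submitters name STAR, StringTie and mm10; the counting program is not given in the sources used here. The table holds 55335 genes, and GENCODE M21 (GRCm38) gave exon lengths and positions for 55154. Genes were tested in R 4.3.3 with edgeR 4.0.16 (quasi-likelihood, robust, TMM, filterByExpr) within each tissue, and for BMDMs against liver within each genotype, with Benjamini–Hochberg adjustment over all genes tested. The SE is the log2 fold change over the square root of F. The authors' own calls used MARS with p under 0.05 and at least 2-fold. The members and the lists were chosen with earlier results of these data known, and which values chose the members is not recorded, so p-values of the members are not printed for any contrast. Named pathway genes were those past the thresholds of the study and, per role, the gene with the highest mean CPM; the 5 genes nearest to *Jag1* used a prior count of 2. A gene named by this rule is not reported here. Alternatives were other scalings, filters, DESeq2 1.42.0, MARS with 0 set to 0.5, a replicate block, all 12 libraries in a fit and each library left out. The scripts were tested on simulated counts. No 2 libraries of a group agreed within sampling noise. The methods of the study give n = 3 mice per group for both tissues, and each library was taken as 1 mouse; the labels do not tie libraries to animals. Figures were made with python 3.11.15 and matplotlib 3.10.9. Reads were not aligned again.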

Additional observations from a re-analysis of the deposited data

How the results depend on the processing

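The number of other Notch pathway genes past the thresholds of the study in BMDMs was 5, and it was 9 with the MARS model on summed counts (3 lower and 6 higher), which takes no account of the spread between replicates and put 1835 lower and 2388 higher of 25179 genes past them (16.8%). With a library left out it was 0 to 8 in BMDMs and 0 to 1 in liver (*Lfng*, lower, without the liver labelled f/f replicate 1). The cause was not tested. *Jag1* kept its direction in all alternatives run, from −1.89 to −1.54 in BMDMs and −0.66 to −0.44 in liver. Members with few counts changed sign: *Notch4* in BMDMs (0.06 without MKO replicate 1), *Notch4* in liver (0.26 without the liver labelled f/f replicate 2), *Hey1* in liver (0.02 without the liver labelled f/f replicate 3), *Hey1* between tissues in f/f libraries (0.28 with library totals, a scaling added after the data were seen) and *Dll4* in liver (−0.33 with the letter that opens the sample ID as a covariate, and −0.11, −0.01 and −0.13 without the liver labelled f/f replicate 1, MKO replicate 1 or MKO replicate 2). Replicate numbers were taken only as names of samples, since the labels do not tie libraries to animals. Deviations of same-numbered libraries correlated at 0.10, 0.01 and 0.10 in BMDMs and at −0.06, 0.22 and −0.02 in liver. With n = 3 per group, these values cannot show whether libraries were paired. With the replicate block 4 pathway genes passed in BMDMs and 0 in liver, where 8.44% and 1.31% of all genes passed. *Jag1* was then at −1.75 and −0.54. Calls of members between tissues are not given for any setting. With library totals *Hey1* was at 1.68 in MKO libraries. In every setting run, *Jag1*, *Rbpj*, *Notch1* and *Notch2* were higher in BMDMs than in liver, and *Hes1* and *Dll4* lower, in f/f and in MKO libraries. Depth limits *Jag2*, *Dll1*, *Dll4*, *Notch4* and *Hey1* in BMDMs, whose values rest on under 70 counts a library.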
